A study of Mus musculus with 48 samples.

Results

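The genes described here are the interferon-induced and antigen presentation genes of the mouse caecum: the classical and non-classical class I genes and the class II genes of the H2 complex, their peptide supply, the interferon regulatory factors and the antiviral effectors. They were chosen by their names: symbols beginning with Ifi, Isg, Irf, Oas, Gbp, Irgm, Iigp, H2- and a few others such as B2m, Tap2, Psmb8, Psmb9, Psmb10 and Cd74. Of the 3779 genes with a symbol measured in the caecum, 43 met this rule, measured by 50 probes on 68 spots. The rule also took Irf2bp2, which encodes a partner of an interferon regulatory factor, and H2-Ke6, which encodes a steroid dehydrogenase in the H2 region. For Stat2, Usp18, Mx1, Mx2, Rsad2, Ddx58, Dhx58, Tap1, Ciita and the Gbp and Iigp families no spot was analysed here.

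RNA was measured on one-colour Agilent arrays, one mouse per array, in 16 mice of the strain BALB/cOlaHsd that were 8 weeks old when gavage began. All mice received standard chow and 500 µL by gavage every day for 30 days. The Chic mice (n = 3) received a decoction of chicory root flour equal to 30 mg of root powder a day, the Fru mice (n = 3) fructose, the CGA mice (n = 3) chlorogenic acids and the STL mice (n = 3) sesquiterpene lactones, at doses matched to what the decoction holds. Chic and Fru were compared with the control group Ctr1 (n = 2) and CGA and STL with Ctr2 (n = 2), because the feeding took place in 2 periods. The study's methods also tie the 2 control groups to the solvent, water for Chic and Fru and DMSO in water for CGA and STL. The labels give water for both controls, while the methods name DMSO in the solvent of Ctr2. The labels give caecum as the tissue, and the methods name both colon and caecum. The sources give the mice as male, but the gender tag reads female on 8 of the 16 arrays. The Y-linked gene Eif2s3y lay at 8.33 to 9.40 (log2 intensity) on the arrays tagged female and at 7.57 to 9.0 on those tagged male.

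Interferons are secreted proteins that are released when cells sense viral or bacterial nucleic acid, and in mucosa they are also made at a tonic level in response to the gut flora. Binding of interferon to its receptors activates STAT proteins and interferon regulatory factors, which switch on the antiviral effectors and raise antigen presentation. Class I molecules, made of an H2 heavy chain and B2m, show peptides from inside the cell and occur on nearly all cells, whereas class II molecules show peptides from outside and are made mostly by dendritic cells, macrophages, B cells and, under interferon gamma, gut epithelium.

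The promoters of 31 of the 43 genes were matched in RefSeq (GRCm38.p6), as the 250 bases before and the 50 after the start of each gene. The interferon-stimulated response element, searched on both strands as GAAA, any 2 bases and GAAA again, was present in 8 of them (25.8%: B2m, H2-T23, Ifit1bl2, Ifitm2, Ifitm3, Irgm2, Isg15 and Oas1a), against 3.99% of the 27025 genes with a promoter in the table. The STAT binding motif, searched as TTCNNNGAA, was present in 6 (19.4%: Ifitm3, Irf1, Irf8, Irgm2, Oas1a and Psmb8), against 9.55%. The inverted CCAAT box of the H2 promoters, searched as GATTGGCT, was present in 4 (12.9%: B2m, H2-D1, H2-Eb1 and H2-T23), against 4.40%. Matches of different motifs overlapped in 1 gene, Ifitm3. Stretches of 7 promoters are printed because the results below turn on these genes or on genes of the same group, in capitals where a motif lies, 5′ to 3′ on the strand of the gene.
Isg15, chr4:156200860-156200911, minus strand, 3 overlapping response elements beginning 78, 72 and 66 bases before the start: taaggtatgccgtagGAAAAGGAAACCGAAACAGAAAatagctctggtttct
Oas1a, chr5:120907526-120907560, minus strand, 2 overlapping response elements beginning 20 and 14 bases before the start: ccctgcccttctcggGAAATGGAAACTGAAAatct
B2m, chr2:122147533-122147655, plus strand, a response element 139 and a CCAAT box 54 bases before the start: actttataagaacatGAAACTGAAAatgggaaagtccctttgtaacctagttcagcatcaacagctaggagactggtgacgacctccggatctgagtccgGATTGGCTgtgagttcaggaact
H2-T23, chr17:36032733-36032840, minus strand, both motifs on the opposite strand, 124 and 54 bases before the start: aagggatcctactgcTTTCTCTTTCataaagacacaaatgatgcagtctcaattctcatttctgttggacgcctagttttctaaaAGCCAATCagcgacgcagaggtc
H2-D1, chr17:35263024-35263061, plus strand, a CCAAT box on the opposite strand 55 bases before the start: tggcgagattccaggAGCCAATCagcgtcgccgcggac
H2-Eb1, chr17:34305792-34305829, plus strand, a CCAAT box 60 bases before the start: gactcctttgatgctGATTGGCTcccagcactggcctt
Irf1, chr11:53769909-53769947, plus strand, a STAT motif 90 bases before the start: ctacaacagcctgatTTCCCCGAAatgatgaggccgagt
A match is a description of letters only, and binding of a factor was not measured.

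The deposited intensities had array medians from 198 (Fru 2) to 1704 (Fru 1), and they were brought to log2 and then to a common distribution over the 16 arrays by quantile normalization. All levels below are on that log2 scale, on which a difference of 1 is a doubling. The spots of the 43 genes were all above 0, and 0 of them reached 65000, where the scanner saturates. All of 7 epithelial markers and 4 of 5 markers of caecal and colonic epithelium had a probe in the table. The presence of a probe does not measure how pure the tissue was. Of the markers of immune cells, 5 of 12 for macrophages and dendritic cells, 3 of 4 for B cells and 0 of 8 for T cells were in the table. Because whole tissue was used, fewer cells of a type and less RNA per cell cannot be told apart. The mice carry the H-2d haplotype of BALB/c, and whether the H2 probes match its alleles was not tested. Spots of one probe gave a measure of the error within an array: the probes of H2-K1 and Ifitm3, with 10 spots each, had a median SD between spots of 0.151 and 0.178, against an SD of 0.443 and 0.378 between mice of a group. The spread between mice was thus larger than that between spots. The exception was H2-K1 on the dimmest array, Fru 2, where 1 spot read an intensity of 3 and the SD between spots was 2.38. By the medians of the spots, the SD of H2-K1 between mice was 0.346. With 1 array per mouse, the spread between mice also holds the error between arrays.

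None of the 43 genes passed an adjusted p of 0.05 in limma, with Benjamini-Hochberg adjustment over the 3779 genes, under any of the 4 diets, between STL and CGA or between the control groups. The same was true of all other genes (0% called in 5 of the 6 comparisons), with 1 exception under Fru (0.0265%), Gla, the lysosomal alpha-galactosidase, named after its value was seen. At an unadjusted p under 0.05, 1 of the 43 genes passed under Chic (2.75% of all genes did), 2 under Fru (7.12%), 2 under CGA (3.47%), 4 under STL (2.86%), 2 between STL and CGA (1.08%) and 1 between Ctr2 and Ctr1 (6.03%). As shares of the 43 genes these are 2.33%, 4.65%, 4.65%, 9.3%, 4.65% and 2.33% (under STL H2-Q7, Irf9 and Ifitm7 higher and Psmb10 lower). The counts moved with the choice of controls: against all 4 control mice pooled, 1 of the 43 genes passed under Chic (0.582% of all genes did), 2 under Fru (1.98%), 7 under CGA (7.57%) and 6 under STL (7.25%). Without the normalization between arrays 0 of the 43 genes passed in each comparison (at most 0.953% of all genes). The smallest adjusted p among the 43 genes was 0.524 in limma, for Oas1b under Fru. The median standard error of a log2 fold change was 0.30 for a diet against its control, with a range of 0.19 to 0.55. Even a difference of 1.11, that of Oas1f between STL and CGA (standard error 0.42), was not called. Changes of about a doubling could thus go uncalled at this number of arrays.

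The median log2 fold change of the 43 genes was 0.07 under Chic (0.03 over all genes), -0.01 under Fru (0.01), -0.13 under CGA (0.04) and -0.02 under STL (0.03). It was 0.05 between STL and CGA (-0.01 over all genes) and -0.01 between Ctr2 and Ctr1 (0.05). Under CGA 14 genes lay above 0 and 29 below. Of all 3779 genes, 1651 lay below 0 under CGA, 1687 under STL, 1858 under Fru and 1628 between Ctr2 and Ctr1. The 4 genes of class I peptide supply had a median of -0.41 under CGA and -0.38 under STL, and the 5 class II genes one of -0.19 and -0.37, with all of these genes below 0 in both comparisons. The 15 antiviral effectors had a median of 0.04 under CGA and 0.13 under STL, while between Ctr2 and Ctr1 it was -0.19, with 12 of the 15 below 0. The peptide supply genes, with a median of 0.13, all lay higher in Ctr2 than in Ctr1. Under Fru the class II genes had a median of -0.24, with 4 of 5 below 0, and the 5 interferon regulatory factors, all below 0, one of -0.19. CGA and STL share the Ctr2 mice, so their values against Ctr2 are not independent of each other.

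**Figure D1:**
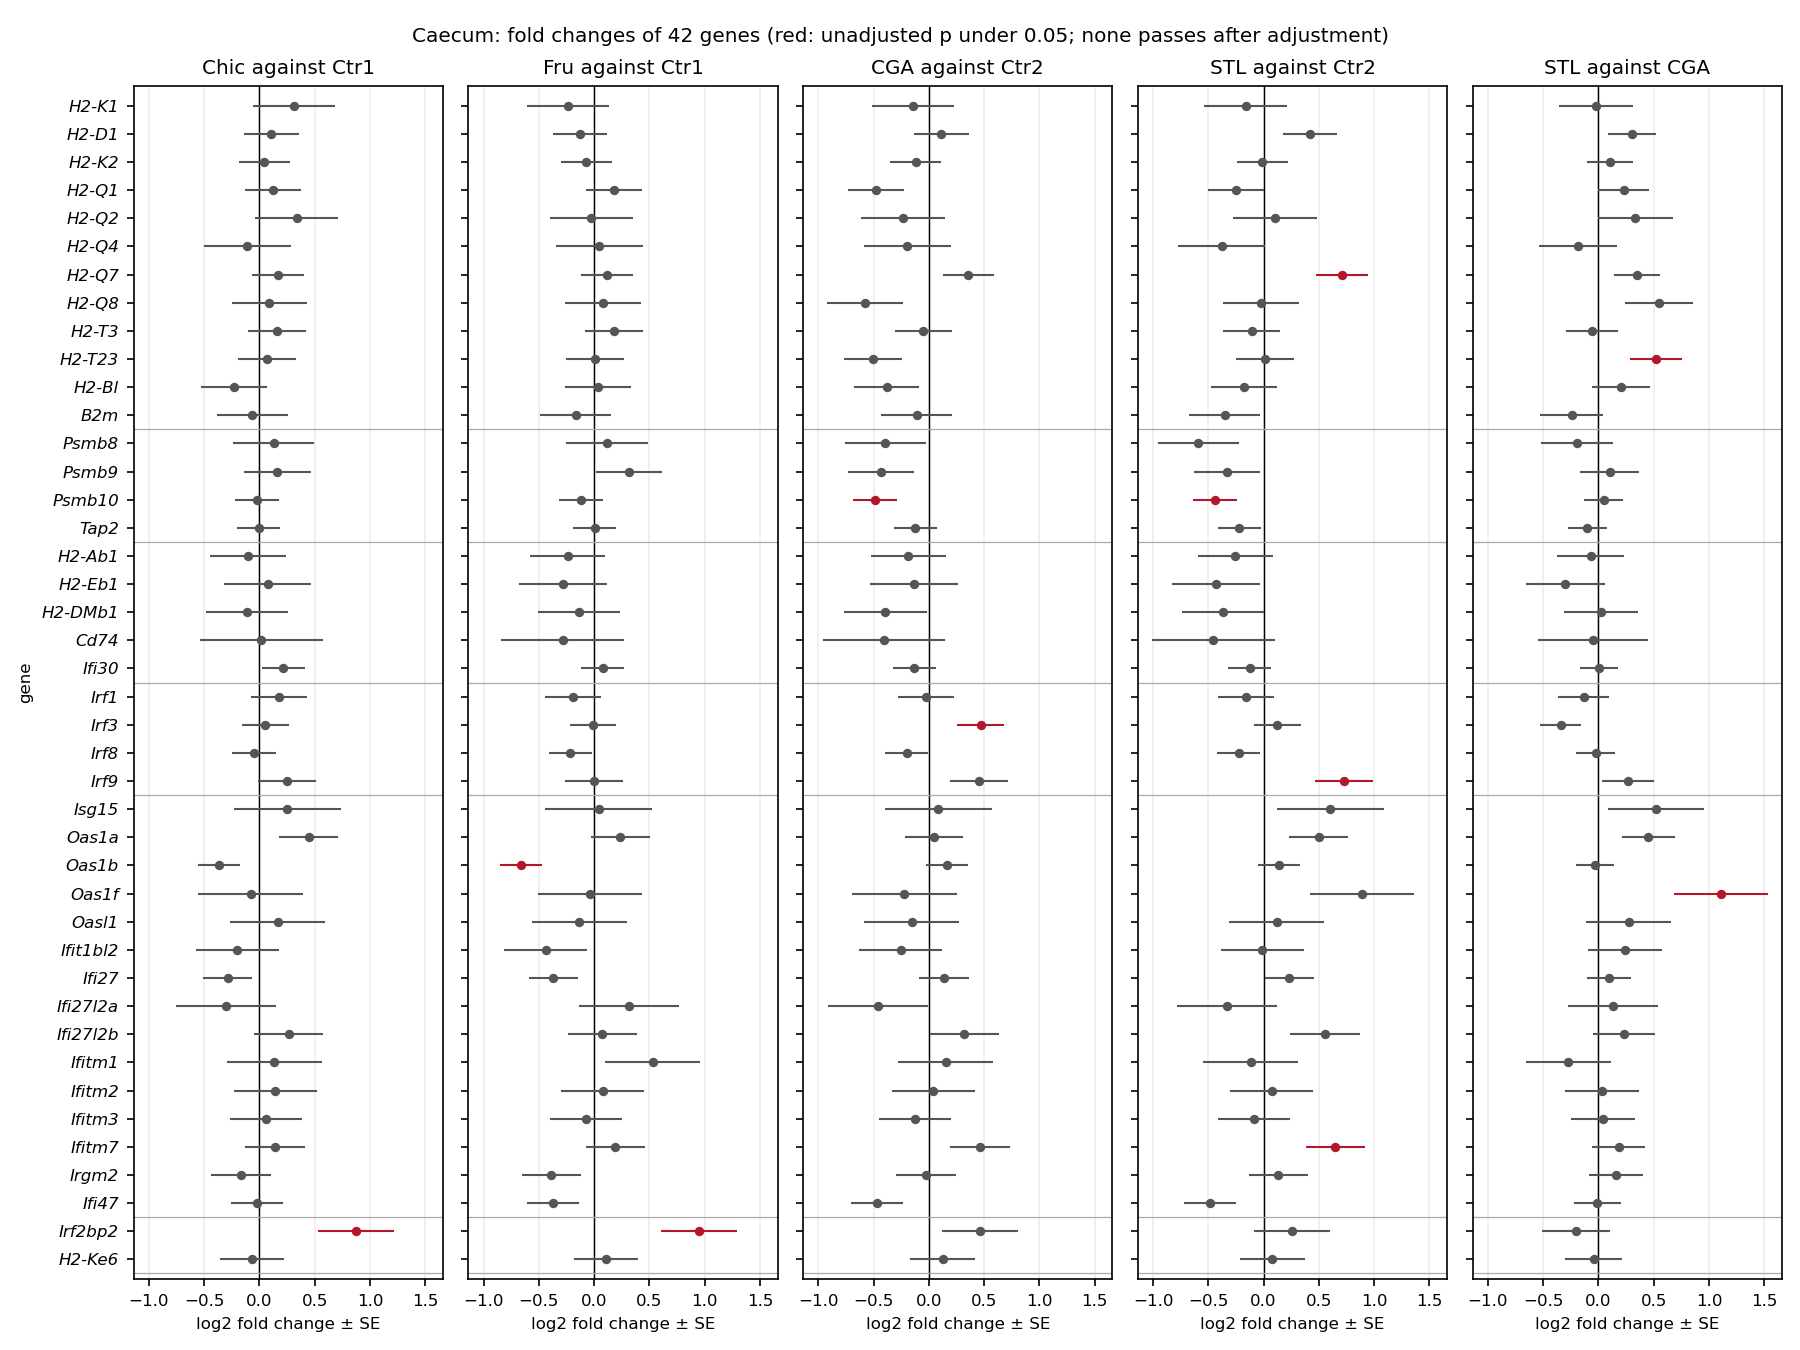
Log2 fold changes (horizontal axis, points, bars are ± 1 standard error from limma) of 42 of the genes, listed down the vertical axis by role, in the 4 diets against their controls and in STL against CGA. Red points have an unadjusted p under 0.05 and no gene passes after adjustment; most bars reach or come close to 0.

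The 12 genes of class I chains lay close to their controls under Chic and Fru, with medians of 0.10 and 0.02. H2-K2 is counted among them by its name, although its transcript is listed as non-coding. H2-Q7, which encodes a Qa-2 antigen, a non-classical class I molecule, had levels of 11.57, 11.55 and 11.51 in the STL mice, 10.60 and 11.07 in the Ctr2 mice and 11.08 and 11.06 in the Ctr1 mice. The 3 STL mice lay above all 4 control mice and above the CGA mice (10.74, 11.36 and 11.49), and they differed little among themselves. They were not apart from every other diet: Chic 3 lay at 11.54, within their range. The other Chic mice and the Fru mice lay lower, at most at 11.32 (Fru 3). Against Ctr2 the log2 fold change was 0.71 (standard error 0.23, 95% interval 0.20 to 1.21, adjusted p = 0.999 in limma). With all 4 controls pooled it was 0.59 (adjusted p = 0.502 in limma). Against CGA, STL was 0.35 higher at H2-Q7 (95% interval -0.10 to 0.80).

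H2-T23 encodes Qa-1, the non-classical molecule that is a ligand of an inhibitory receptor of natural killer cells. Its levels ran from 11.37 (CGA 1) to 12.06 (CGA 2) in the CGA mice, 12.35 and 12.29 in Ctr2 and 12.21, 12.26 and 12.53 in STL. All 3 CGA mice lay below the Ctr2 and the STL mice, and CGA 1 stood lowest of all 16 mice. The difference of STL from CGA was 0.52 (standard error 0.23, 95% interval 0.02 to 1.03, adjusted p = 1.00 in limma), and that of CGA from Ctr2 was -0.51 (95% interval -1.07 to 0.06). H2-Q8, another Qa-2 gene, had levels of 10.08, 11.15 and 10.84 in CGA, 11.01, 11.24 and 11.46 in STL and 10.92 and 11.61 in Ctr2. These groups overlapped, with a difference of 0.55 between STL and CGA (standard error 0.31).

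The mouse CGA 1 was the lowest of the 16 at H2-D1, H2-K2, H2-Q1, H2-Q2, H2-Q8, H2-T23 and H2-Bl, and its mean deviation over the 12 class I genes was -0.63, where the other mice ranged from -0.23 (Ctr2 1) to 0.37 (Fru 3). The classical gene H2-K1, which presents peptides to cytotoxic T cells, lay at 12.64 in this mouse, against 12.43 and 13.12 in the other CGA mice, by its brightest probe. Its second probe read 10.25 in CGA 1, the lowest of the 16 mice, where the others lay between 11.08 and 12.03, so the probes of H2-K1 disagreed for CGA 1. At the dimmer probes of H2-Q2 and H2-K2 CGA 1 was not the lowest. H2-D1, the other classical gene with a probe, lay at 12.22, 12.14 and 12.22 in STL and at 11.57 and 11.99 in Ctr2. The STL mice thus lay above Ctr2, but Ctr2 itself lay below Ctr1 (12.26 and 12.28), and against the 4 pooled controls the difference shrank from 0.42 to 0.17. B2m, the light chain shared by all class I molecules, lay at 13.11, 13.04 and 12.75 in STL and at 13.40 and 13.24 in Ctr2, with a log2 fold change of -0.35 (95% interval -1.04 to 0.34). H2-Q1 lay at 8.78, 9.51 and 9.48 in CGA, below both Ctr2 mice (9.76 and 9.70). The rest of the class I genes, H2-K2, H2-Q2, H2-Q4, H2-T3 and H2-Bl, had an unadjusted p above 0.05 in each comparison.

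**Figure D2:**
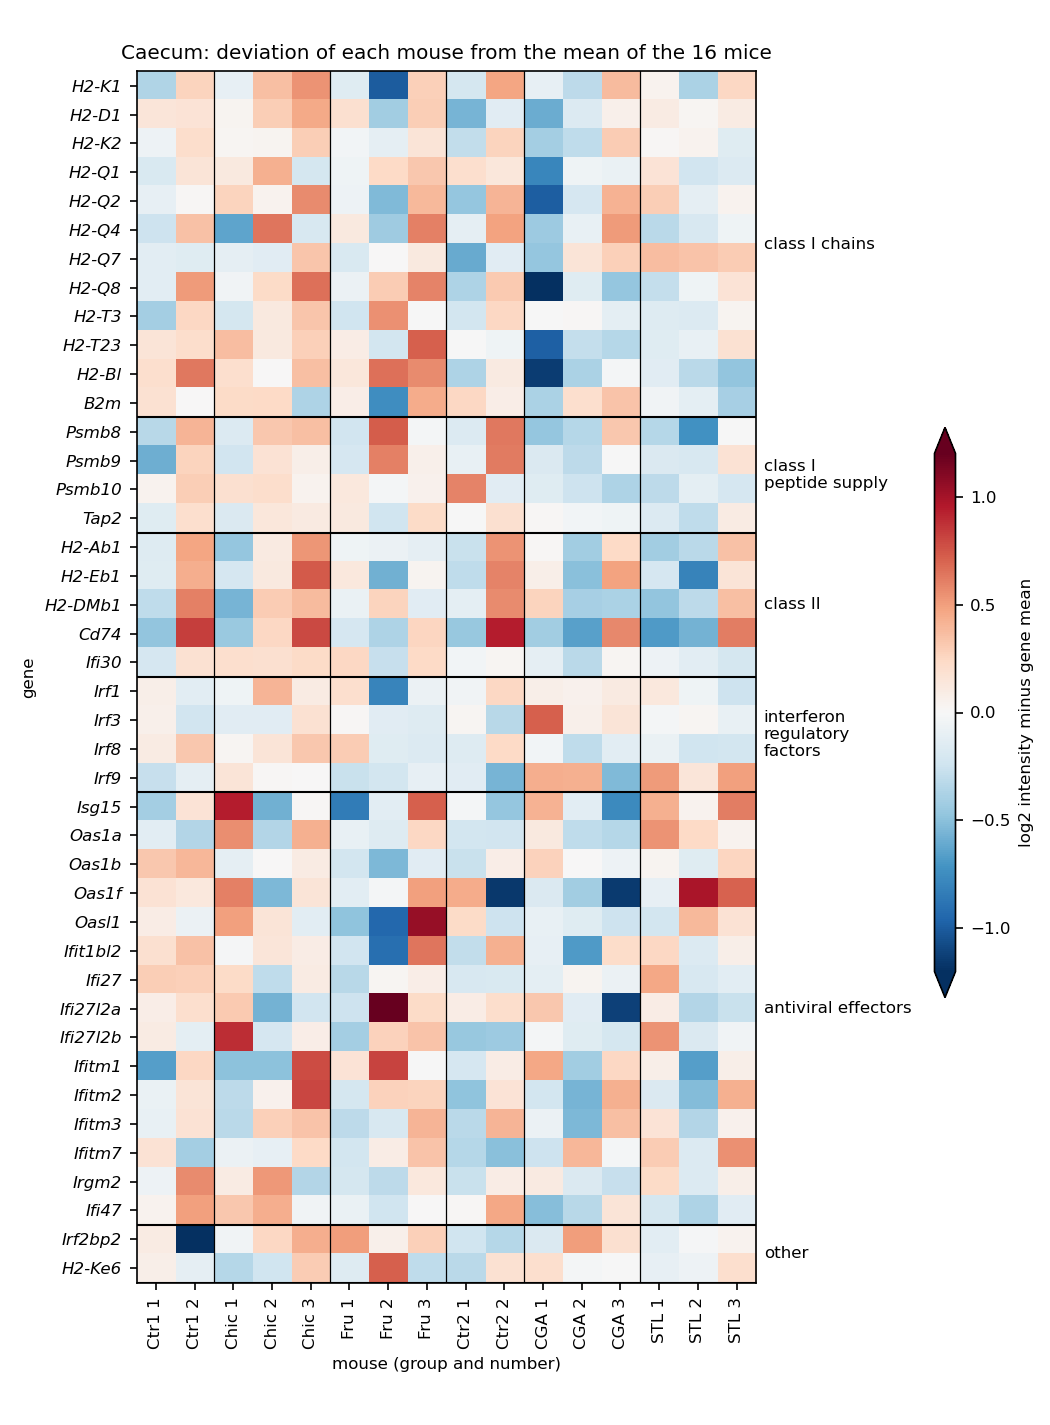
Deviation of the log2 intensity of each of 42 genes (rows, by role) in each mouse (columns) from the mean of the 16 mice, in red above and in blue below the mean. CGA 1 is low over most class I chains, and Cd74, H2-Ab1 and H2-Eb1 are high together in Ctr1 2, Ctr2 2 and Chic 3.

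Genes of class I peptide supply encode the immunoproteasome subunits, which replace constitutive ones when interferon gamma is present and change how proteins are cut, and the transporter that brings peptides into the endoplasmic reticulum. Psmb10 had levels of 11.29, 11.19 and 11.07 in CGA, 11.12, 11.32 and 11.24 in STL and 12.03 and 11.30 in Ctr2. All CGA mice lay below both Ctr2 mice, by a small margin below Ctr2 2, and STL overlapped Ctr2. Its log2 fold change came to -0.49 under CGA (standard error 0.20, adjusted p = 1.00 in limma) and -0.44 under STL (standard error 0.20, adjusted p = 0.999 in limma). These differences rested on Ctr2 1: without it they were -0.12 and -0.07. In Ctr1 Psmb10 lay at 11.48 and 11.74, and in Chic and Fru it ranged from 11.42 to 11.65, within 0.12 of Ctr1 in the mean.

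Psmb8 and Psmb9, the other inducible subunits, differed by -0.40 and -0.43 under CGA and by -0.59 and -0.33 under STL, with standard errors of 0.37 and 0.30. Their levels overlapped with Ctr2 in each case, since Ctr2 2 was high (10.18 and 10.01) and Ctr2 1 was not (9.38 and 9.31). Tap2, a subunit of the peptide transporter, varied least of these genes, from 9.72 to 10.25 over the 16 mice, with -0.12 under CGA and -0.22 under STL (standard error 0.19). The constitutive subunits Psmb5, Psmb6 and Psmb7 were not called either (0 of 3 at an unadjusted p under 0.05 in each comparison).

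The class II genes differed widely between mice of one group. Cd74, which encodes the invariant chain that guards the peptide groove of class II molecules, had levels of 10.94 and 12.24 in Ctr1 and 10.96 and 12.36 in Ctr2. It lay at 10.97, 11.66 and 12.20 in Chic and at 11.21, 11.04 and 11.68 in Fru. In CGA it ran from 10.76 (CGA 2) to 11.99 (CGA 3), with CGA 1 near CGA 2, and in STL it lay at 10.74, 10.84 and 12.03. Each control group thus held 1 high and 1 low mouse, more than a doubling apart, and all diets overlapped with their control. The SD of the 6 group means of Cd74 was 0.20, against an SD of 0.68 within groups. Means of 2 or 3 mice vary less than single mice in any case. Ifitm3 showed the same order (0.07 against 0.38) and Oas1b the reverse (0.22 against 0.18). The log2 fold change of Cd74 under STL was -0.46 with a 95% interval of -1.65 to 0.74. Without Ctr2 2 it was 0.25.

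H2-Ab1 and H2-Eb1 encode beta chains of the class II molecules. H2-Ab1 had levels of 11.83 and 12.46 in Ctr1, 11.71 and 12.51 in Ctr2 and 11.57, 11.66 and 12.33 in STL. The pattern was that of Cd74, with the same mouse of each of these groups on top. In the Fru mice the values of H2-Ab1 lay together at 11.93, 11.91 and 11.87, between the 2 Ctr1 mice. H2-Eb1 lay at 12.50, 11.90 and 12.85 in STL and at 12.40 and 13.29 in Ctr2, a difference of -0.43 (95% interval -1.28 to 0.43). H2-DMb1, a subunit of the chaperone that loads class II peptides, ranged from 8.55 (Chic 1) to 9.71 (Ctr1 2), and Ifi30, an interferon-induced thiol reductase that unfolds antigens in lysosomes, from 8.36 (CGA 2) to 8.92 (Fru 1 and Fru 3). Their log2 fold changes were -0.37 and -0.13 under STL, with standard errors of 0.37 and 0.19. Ifi30 was 0.22 higher under Chic, where all 3 mice (8.88, 8.87 and 8.91) lay just above both Ctr1 mice (8.47 and 8.86).

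Over the 16 mice, Cd74 varied together with H2-Ab1 (Pearson's r = 0.94, 0.93 within groups), H2-Eb1 (r = 0.86) and H2-DMb1 (r = 0.70), and less with Ifi30 (r = 0.45). It also varied with C1qc, a complement gene of macrophages (r = 0.86, 0.91 within groups), and with Cd79b, a gene of the B cell receptor (r = 0.56). The other measured markers of macrophages, dendritic cells and B cells were not paired with Cd74, so C1qc and Cd79b do not stand for their lists. The median r between 2 class II genes was 0.63, against 0.0215 between 2 genes of the whole table. These are descriptions over 16 arrays that share a normalization, and the part of immune cell content in them was not tested. The summed linear level of the 5 macrophage and dendritic markers overlapped between each diet and its control, from 2058 to 3511 in Ctr1, 2197 to 3144 in Ctr2 and 1989 to 2938 in STL. The sum of the 3 B cell markers lay wholly above Ctr1 (1131 to 1886) under Fru (1930 to 2161). Under Fru the macrophage gene C1qa was 1.08 higher, the B cell gene Ms4a1 0.81 and the plasma cell gene Mzb1 0.81 (adjusted p = 0.548, 0.644 and 0.624 in limma). These had the largest statistic of their lists, whose median log2 fold changes were 0.21, 0.38 and 0.45. Jchain of the plasma cell list was 0.09 higher. Csf1r of the macrophage list lay at 9.66, 8.74 and 9.33 in Fru and at 9.51 and 9.49 in Ctr1. Mzb1 is also a gene that the study names as raised under chicory and fructose. The study selected it on arrays of this same series, so that naming is no independent evidence. The 5 genes outside the rule whose profiles were most like the mean class II profile were Tagln (r = 0.89), Pgd (0.87), Pglyrp1 (0.85), Gm1987 (0.85) and Acsf2 (0.84). Tagln is a marker of smooth muscle. For the class I genes they were ND5 (r = 0.87), Mtif2 (0.86), Atp6v0c (0.83), Kcmf1 (0.82) and Krt42 (0.82).

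**Figure D3:**
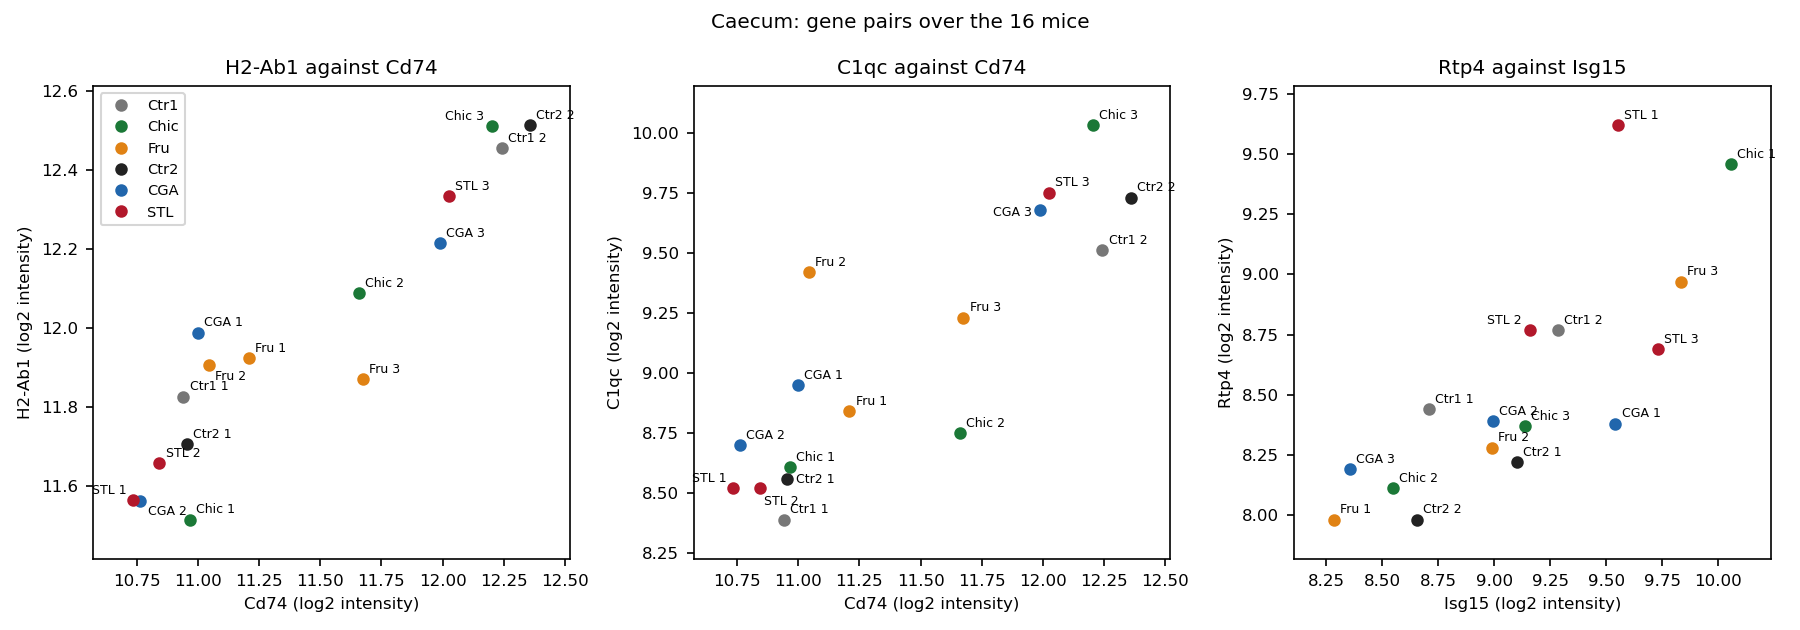
Log2 intensity of H2-Ab1 and of C1qc against Cd74, and of Rtp4 against Isg15, 1 point per mouse, coloured by group. In the first panel mice of one group lie far apart along a common line (r = 0.94), with Ctr1 2, Ctr2 2 and Chic 3 at its upper end and STL 1 and CGA 2 at its lower end.

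Among the interferon regulatory factors, Irf9, the DNA-binding part of the complex that type I interferon forms with STAT proteins, had levels of 8.99, 8.63 and 8.98 in STL, 8.35 and 7.93 in Ctr2 and 8.21 and 8.38 in Ctr1. The STL mice lay above all 4 control mice, and 2 of the 3 CGA mice (8.92 and 8.91, against 7.96 in CGA 3) lay as high. The log2 fold change under STL was 0.73 (standard error 0.26, 95% interval 0.16 to 1.29, adjusted p = 0.999 in limma), and 0.65 with all 4 controls pooled. Between STL and CGA the difference was 0.27 (95% interval -0.23 to 0.77). The Chic mice (8.64, 8.50 and 8.49) also lay above both Ctr1 mice, by 0.25.

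Irf3, which drives the first wave of interferon when nucleic acid is sensed, lay at 10.25, 9.60 and 9.69 in CGA and at 9.56 and 9.20 in Ctr2. The CGA mice lay above Ctr2, CGA 1 by the widest margin, and the group mean was 0.47 higher on the log2 scale (standard error 0.21, adjusted p = 1.00 in limma). Irf8, a factor that dendritic cells and macrophages require, ranged from 10.02 (CGA 2) to 10.65 (Ctr1 2), and its fold changes were -0.22 under Fru, -0.20 under CGA and -0.22 under STL (standard error 0.19). Irf1, a factor induced by interferon gamma, had its lowest value on the dimmest array, Fru 2 (10.49), and differed by at most 0.19 from control in the mean of any diet.

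The antiviral effectors did not move as one group, with a median r of 0.15 between 2 of the 15 genes. Isg15, a ubiquitin-like modifier that is among the most inducible interferon targets, had levels of 9.55, 9.16 and 9.73 in STL, 9.10 and 8.65 in Ctr2 and 9.54, 8.99 and 8.35 in CGA. The STL mice lay above both Ctr2 mice but overlapped with CGA and with Ctr1 (8.71 and 9.28). Its log2 fold change was 0.60 with a 95% interval of -0.44 to 1.65. In Chic it lay at 10.06, 8.55 and 9.14 and in Fru at 8.28, 8.99 and 9.83, so that the highest mouse of the study was a Chic mouse and the lowest a Fru mouse. Oas1a, an oligoadenylate synthetase that activates the degradation of RNA, lay at 11.52, 11.22 and 11.02 in STL, above Ctr2 (10.76 and 10.75), and was 0.50 higher (standard error 0.27). Its second probe gave 0.72 in the same comparison. Oas1a in Chic lay at 11.54, 10.62 and 11.40 and overlapped with Ctr1 (10.86 and 10.63).

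Isg15 varied over the 16 mice with Ifi27l2b (r = 0.70), Oas1a (0.68), Irf9 (0.64), Oasl1 (0.54) and Ifi27 (0.46). Isg15 and Oas1a are the 2 genes whose promoters, printed above, hold overlapping response elements. These 6 genes were chosen after their values were seen. Outside the rule, the gene most like their mean profile was Rtp4, an interferon-induced chaperone of receptors (r = 0.92), and its r with Isg15 alone was 0.79. The mean deviation of the 6 genes was highest in Chic 1 (0.54), Fru 3 (0.39) and STL 1 (0.38) and lowest in Fru 1 (-0.40), CGA 3 (-0.36) and Ctr2 2 (-0.35), so single mice of different diets, not one diet, stood at either end. Between Isg15 and Cd74 r was -0.15, so the ranking of the mice by class II genes was a different one from that by Isg15.

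Among the other synthetase genes, Oas1b, the flavivirus resistance gene of mice, had levels of 10.54, 10.22 and 10.62 in Fru, 10.65, 10.76 and 10.85 in Chic and 11.08 and 11.16 in Ctr1. All Fru and all Chic mice lay below both Ctr1 mice. The log2 fold change was -0.66 under Fru (standard error 0.19, 95% interval -1.07 to -0.25, adjusted p = 0.524 in limma) and -0.37 under Chic (adjusted p = 1.00 in limma). The Ctr2 mice, which received no chicory compound, lay at 10.49 and 10.84 and were also below Ctr1, by 0.45 (adjusted p = 0.803 in limma). The second probe of Oas1b gave -0.18 under Fru, and its r with the first probe was 0.39. Under Fru the 5 measured genes of the liver list all lay lower at an unadjusted p under 0.05: their summed linear level was 7289 to 13852 in Ctr1 and 621 to 3739 in Fru. The same 5 genes lay lower at that threshold in Ctr2 than in Ctr1 (686 to 2622 in Ctr2), and the part of other tissue in the Ctr1 samples was not tested.

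Oas1f, a further gene of the Oas1 cluster, had levels of 8.74, 9.82 and 9.55 in STL, 8.67, 8.42 and 7.69 in CGA and 9.28 and 7.67 in Ctr2. The STL mice lay above the CGA mice, and the Ctr2 mice spanned both. The difference of STL from CGA was 1.11 (standard error 0.42, 95% interval 0.20 to 2.02, adjusted p = 1.00 in limma). It was the largest difference of the 43 genes in any of the 6 comparisons and the only one whose group means differed by a factor over 2.0 or under 0.5, at a ratio of 2.18, where 0.979% of all genes passed. The methods apply these factors to single treated mice against the mean of their controls, and not to group means. In the other comparisons 0 of the 43 genes passed on group means, where 1.19% of all genes did under Chic, 2.86% under Fru, 1.59% under CGA, 1.32% under STL and 1.91% between the control groups. Against Ctr2 the value under STL was 0.89, but 1.70 without Ctr2 1 and 0.08 without Ctr2 2. In Ctr1, Chic and Fru, Oas1f ranged from 8.30 to 9.44.

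Ifitm7, of the family of membrane proteins that block virus entry, lay at 12.10, 11.63 and 12.35 in STL, 11.56, 12.20 and 11.78 in CGA and 11.46 and 11.30 in Ctr2. Both diets lay above Ctr2 but overlapped with Ctr1 (11.97 and 11.39). In log2 fold change Ifitm7 was 0.65 higher under STL (standard error 0.27, adjusted p = 0.999 in limma) and 0.46 higher under CGA (standard error 0.27). The relatives Ifitm2 and Ifitm3 varied together over the 16 mice (r = 0.77) and differed by at most 0.14 from control under any diet, although Ifitm3 was measured by 10 spots per array. Ifitm1 ranged widely, from 7.45 (Ctr1 1) to 8.93 (Fru 2).

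Ifi27, Ifi27l2a and Ifi27l2b are small interferon-induced membrane proteins of the same family. Ifi27 lay at 11.05 and 11.04 in Ctr1, above the Chic mice (10.98, 10.45 and 10.86), the Fru mice (10.42, 10.78 and 10.83) and the Ctr2 mice (10.56 and 10.58). Ifi27l2b lay at 10.21, 9.49 and 9.62 in STL, above Ctr2 (9.21 and 9.23), but Ctr2 was below Ctr1 (9.77 and 9.55) and the Ctr1 and STL mice overlapped. Ifi27l2a had the widest range of the 43 genes, from 9.80 (CGA 3) to 12.31 (Fru 2), and both extremes were single mice. Of the interferon gamma-induced GTPases, Ifi47 was 0.47 lower under CGA and 0.48 lower under STL (standard error 0.24), at 8.72, 8.57 and 8.80 in STL and 8.95 and 9.40 in Ctr2, and Irgm2 was 0.13 higher under STL. Oasl1, a synthetase-like gene, ranged from 9.46 (Fru 2) to 11.45 (Fru 3), and Ifit1bl2, of the family that binds viral RNA, from 7.63 (Fru 2) to 9.17 (Fru 3).

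**Figure D4:**
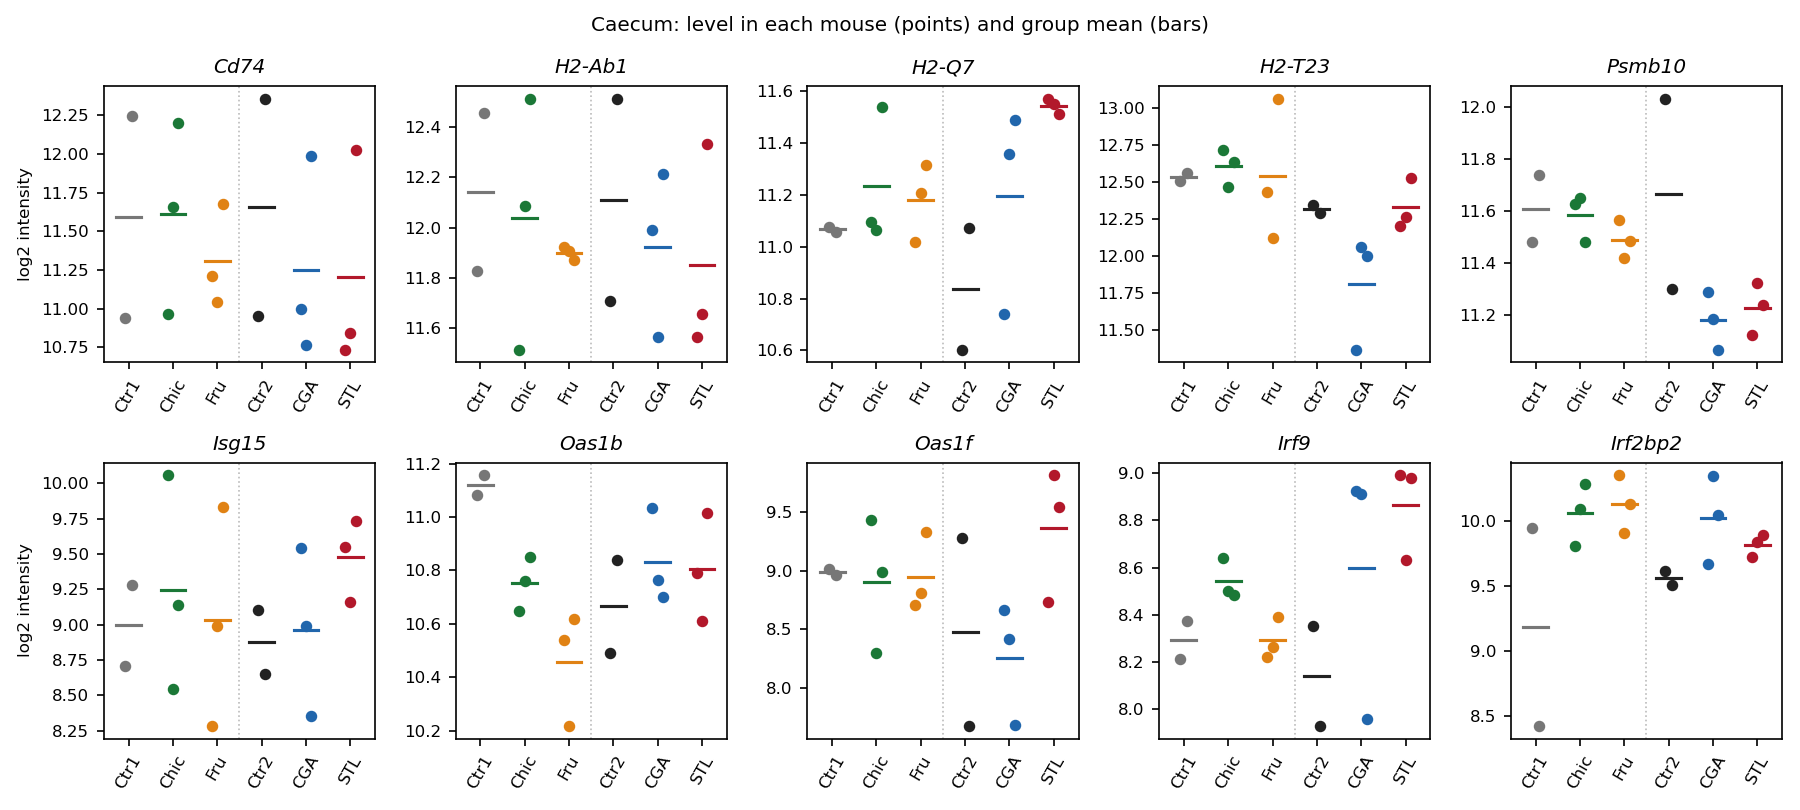
Log2 intensity (vertical axis, its range differs between panels) of 10 genes in each mouse (points), by group (horizontal axis), with the group mean as a bar and the 2 feeding periods parted by a dotted line. The 3 STL mice lie close together and above all 4 control mice at H2-Q7, the 2 control mice of each group lie far apart at Cd74, and a single Ctr1 mouse lies far below the rest at Irf2bp2.

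Irf2bp2, a corepressor that binds the interferon regulatory factor IRF2, had levels of 9.81, 10.10 and 10.29 in Chic, 10.36, 9.91 and 10.13 in Fru and 9.95 and 8.42 in Ctr1. The diets overlapped with Ctr1 1, and Ctr1 2 stood more than a doubling below every other mouse. The log2 fold change was 0.88 under Chic (standard error 0.34, adjusted p = 1.00 in limma) and 0.95 under Fru (standard error 0.34, adjusted p = 0.614 in limma). Without Ctr1 2 the values were 0.11 and 0.18, and without Ctr1 1 they were 1.65 and 1.72, with adjusted p of 0.00902 and 0.00616 in limma, the only calls among the 43 genes in any limma setting. Irf2bp2 is also one of the genes that the study selected on these Chic and Ctr1 arrays, so its direction there is no independent evidence. H2-Ke6 ranged from 9.0 to 10.06 and differed by at most 0.12 from control under any diet.

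Counted by overlap, 3 of the 43 genes lay wholly above and 3 wholly below Ctr1 under Chic (H2-Q2, Ifi30 and Irf9 above, where 9.19% of all genes did, and Oas1b, Ifit1bl2 and Ifi27 below, where 6.54% did). For H2-Q2 this was the brightest probe, with a log2 fold change of 0.34, and the dimmer probe went the other way: its Chic mice (8.30, 7.73 and 8.13) lay below both Ctr1 mice (8.66 and 8.57), with a log2 fold change of -0.56. Under Fru 0 lay above (10.4% of all genes) and 3 below (Oas1b, Ifi27 and Ifi47, 7.75%). Under CGA 5 lay above Ctr2 (Irf3, Ifi27, Ifi27l2b, Ifitm7 and Irf2bp2, 11.3%) and 3 below (H2-Q1, H2-T23 and Psmb10, 6.89%). Under STL 8 lay above (H2-D1, H2-Q7, Irf9, Isg15, Oas1a, Ifi27l2b, Ifitm7 and Irf2bp2, 11.1%) and 4 below (B2m, Ifi30, Ifi27l2a and Ifi47, 6.04%). Between the diets, 3 genes lay wholly higher in STL than in CGA (H2-Q7, H2-T23 and Oas1f, 1.93%) and 1 lower (Irf3, 2.75%). Ctr2 lay wholly below Ctr1 at 6 genes (H2-D1, H2-T23, H2-Bl, Oas1b, Ifi27 and Ifi27l2b, 13.6%) and above it at 0 (19.9%). Of the 8 genes that lay above Ctr2 under STL, H2-D1 and Ifi27l2b are thus also among those at which Ctr2 lay below Ctr1.

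Markers of other cells differed widely between single mice. The summed linear level of the Paneth cell genes Defa3, Defa23 and Lyz1, 3 of the 14 genes of their list, ran from 1795 to 50143 in Ctr1, 1361 to 41828 in Chic, 1254 to 25826 in Fru and 866 to 45066 in STL. It was 20115 to 40960 in Ctr2 and 1080 to 3310 in CGA, and only this diet did not overlap with its control. Of the markers of small intestine enterocytes, 6 of 10 were measured. Fabp6 ran from 6.38 (Fru 1) to 13.09 (Ctr1 2) and Anpep from 8.07 (Fru 1) to 12.46 (Ctr1 2). Fabp2 ran only from 13.89 (Chic 1) to 14.41 (STL 2). The sum of the erythrocyte genes reached 65805 in 1 mouse, STL 3, where the sums in the Ctr2 mice were 10377 and 13659. The part of these cells in the differences of the 43 genes was not tested.

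The wider interferon pathway was read from lists of other genes of the same processes. Of the receptors and signal carriers, 5 of 15 were measured and 0 were called in any comparison. Ifngr1, which encodes the interferon gamma receptor, was 1.88 higher under CGA and 1.87 under STL (standard error 0.66, adjusted p = 1.00 and 0.999 in limma). Of the control mice, Ctr2 2 read 7.34, where the other 15 mice lay between 10.16 and 11.23. Of the nucleic acid sensors and their adaptors 6 of 18 were measured, of other interferon-induced genes 14 of 36, of the peptide loading and H2 control genes 10 of 24, and of the constitutive proteasome subunits 3 of 3, again with 0 called. The largest statistic among the other interferon-induced genes under STL was that of Rtp4, at 0.93 (standard error 0.39, adjusted p = 0.999 in limma), and under Fru that of Shisa5, at -0.49 (standard error 0.20, adjusted p = 0.644 in limma). Tapbp, which tethers class I molecules to the peptide transporter, differed by 0.42 under CGA and 0.39 under STL, with a standard error of 0.21, and differed by -0.45 between Ctr2 and Ctr1.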

How the data were processed

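The authors deposited one table of array intensity values for the caecum, as whole numbers on a linear scale with a probe name, symbol and accession per row. Scanning was done with GenePix Pro and normalization by quantiles according to the methods, whereas the labels give Agilent Feature Extraction. The 16 arrays had 16 distinct medians, so the deposited values were not quantile-normalized between arrays. Of 6214 features, 227 controls and 878 without a symbol were left out, and 23 values at or below 0 were set to missing. Here the log2 of each value was taken and quantile normalization applied. Spots of a probe were averaged, and a gene with several probes (6 of the 43) was read from its brightest one. Symbols were updated through the RefSeq accession for 89 genes, and the accession of 39 members matched. The headings write CQA for CGA. A single model of the 6 groups was fitted with lmFit and eBayes of limma 3.58.1 (R 4.3.3, two-sided tests), with Benjamini-Hochberg adjustment over 3779 genes and a threshold of 0.05. The replicates are separate mice by their labels, with 2 or 3 in a group. The tests set each difference against 1 estimate of the spread per gene, pooled over the 6 groups and moderated across genes. The factors of the methods, over 2.0 or under 0.5, which the authors applied to single treated mice, were applied here to group means. The fit was tested on simulated data first. Python 3.11.15 with pandas 2.3.3 and matplotlib 3.10.9 was used for promoters and plots. The number of arrays and the brightness of the spots limit the precision. Of the 43 members 42 are eligible to be named and plotted, while 1 is counted with the rest but not reported here. Of each pathway list at most the 2 genes with the largest statistic, and for likeness the 5 genes with the highest correlation, were eligible to be named. Marker genes are given only as values beside a result. The members and lists were chosen with earlier results of these data known. The alternatives were other normalizations, probes, filters, controls, fits, the replicate block and each array left out.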

Additional observations from a re-analysis of the deposited data

How the results depend on the processing

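The count of called genes among the 43 stayed at 0 in each comparison under the 75th percentile shift, the values as deposited, the filter on dim probes, the mean of all probes, the variance trend, the fit of the compared groups alone and the median of spots (chosen after seeing the data), and with pooled controls in the 4 diets, for which alone they were run. With each array left out it ran from 0 to 1 under Chic and Fru (1 without Ctr1 1, Irf2bp2, when 40 and 44 of all genes were called) and was 0 otherwise. A 2-fold threshold on group means gave 1 for STL against CGA (Oas1f) and 0 elsewhere. With the replicate block 0 were called, and 4 of the 43 genes under CGA (5.13% of all genes) and 3 under STL (4.15%) had an unadjusted p under 0.05. The correlations between same-numbered mice ran from -0.25 to 0.57, so the numbers were not taken to pair the mice. As deposited, the median of all genes shifted to -0.60 under Fru, -0.28 under CGA and -0.31 under STL, and relative to it the class II medians were -0.17, -0.24 and -0.38. Single values moved more: Oas1b under Fru ran from -1.23 (as deposited) to -0.42 (mean of probes), and H2-K1 under Fru from -0.76 (as deposited) to 0.12 (without Fru 2). H2-Q7, Irf9 and Ifitm7 under STL ran from 0.39 to 0.94, 0.28 to 0.94 and 0.32 to 0.85, and H2-T23 and Oas1f between STL and CGA from 0.30 to 0.64 and 0.83 to 1.41. Under STL 20 of the 43 genes had one sign in every setting, under CGA 18, under Chic 12 and under Fru 7. The settings reuse the same arrays, and the share over all genes was not computed, so these counts do not rank the diets.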
